A study of Mus musculus with 9 samples.

Results

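The oligoadenylate synthetase (Oas) genes of the mouse were followed in RAW264.7 cells, a mouse macrophage line established from a tumour induced by Abelson murine leukaemia virus. The members are the 8 genes whose symbol in the deposited tables is Oas1a, Oas1b, Oas1c, Oas1g, Oas2, Oas3, Oasl1 or Oasl2, out of 43629 genes listed. All 8 passed the filter on low values (3 or more libraries with 10 or more normalised counts), as did 14808 genes in all. The 9 RNA-seq libraries came from cells given lipopolysaccharide (LPS, a bacterial endotoxin that activates macrophages) and the histone deacetylase inhibitor sodium butyrate (NaBu, the salt of a short-chain fatty acid), named LPS+NaBu (n = 3), from cells given LPS alone (n = 3) and from Control cells given neither (n = 3). The design text places NaBu before LPS and calls the replicates biological. Whether they were separate cultures is not said, and the spread that p-values rest on here may be technical in part. A library of cells given NaBu alone was not analysed here, so the comparisons with NaBu concern LPS-stimulated cells. All groups share one transformed line, whose response can differ from that of primary macrophages. Doses and times of these libraries are not given in the labels.

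Oas enzymes are induced by interferon and are switched on by double-stranded RNA, a by-product of viral infection. The active enzymes join ATP into short chains linked from 2′ to 5′, called 2-5A, a signal of the antiviral response that slows protein synthesis. Oasl genes encode related proteins that carry ubiquitin-like domains at their end, and some family members have no synthetase activity. In macrophages LPS induces interferon beta, which acts back on the cells through the interferon receptor and the transcription factor ISGF3, of which Stat2 and Irf9 are subunits. ISGF3 binds the interferon-stimulated response element (ISRE) in promoters of this gene class.

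The 8 members lie on chromosome 5 (GRCm39, GENCODE M39) in a pair and a cluster. The Oasl2-Oasl1 pair consists of Oasl2 (chr5:115034997-115050295) and Oasl1 (chr5:115061294-115075974), both on the plus strand. In the cluster, Oas2 (chr5:120868398-120887933) and Oas3 (chr5:120891163-120915729) lie on the minus strand and are followed by Oas1c (chr5:120938259-120950579, minus strand) and Oas1b (chr5:120950700-120962228, plus strand). Oas1c and Oas1b are transcribed away from each other with 120 bases between their starts. Oas1g (chr5:121014205-121025676) and Oas1a (chr5:121031070-121046449) close the cluster on the minus strand. The paralogs Oas1d, Oas1e, Oas1f and Oas1h, which are not members, lie within the same cluster.

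Promoter sequences were compared because the members share a textbook regulator but, as described below, not the same response. RefSeq promoters (GRCm38.p6) were given for 6 of the 8 members, and not for Oas2 and Oas1b; each of the 6 matched GRCm39 exactly once. The ISRE core was searched as GAAANNGAAA on both strands of the 250 bases before the start. It occurred in 4 of the 6 members, and 2.98% of 32851 promoters in the table hold it. The 120 bases before the start are printed 5′ to 3′ on the strand of the gene, with the ISRE core in capitals (as its reverse complement in Oas1c). The Oas1a and Oas1g windows, chr5:121045589-121045708 and chr5:121025677-121025796, each held 2 overlapping cores at nearly the same place, that of Oas3 (chr5:120915725-120915844) held 1, and that of Oas1c (chr5:120950580-120950699) held 2 overlapping ones on the other strand. The windows of Oasl1 (chr5:115061179-115061298) and Oasl2 (chr5:115034875-115034994) are shown because these genes rose the most with LPS, and they held no match to these letters.
Oas1a: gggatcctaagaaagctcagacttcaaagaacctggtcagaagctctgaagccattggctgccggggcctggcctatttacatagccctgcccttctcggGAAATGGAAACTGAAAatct
Oas1g: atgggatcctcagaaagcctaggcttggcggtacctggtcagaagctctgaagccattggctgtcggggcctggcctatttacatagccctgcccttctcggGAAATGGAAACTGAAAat
Oas3: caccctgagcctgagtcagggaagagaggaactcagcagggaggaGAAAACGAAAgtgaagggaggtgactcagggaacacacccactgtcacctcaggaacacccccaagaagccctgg
Oas1c: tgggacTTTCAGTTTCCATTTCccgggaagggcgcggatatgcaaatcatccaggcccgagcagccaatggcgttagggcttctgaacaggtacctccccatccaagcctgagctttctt
Oasl1: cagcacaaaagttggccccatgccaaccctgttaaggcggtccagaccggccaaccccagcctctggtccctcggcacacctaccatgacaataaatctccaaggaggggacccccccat
Oasl2: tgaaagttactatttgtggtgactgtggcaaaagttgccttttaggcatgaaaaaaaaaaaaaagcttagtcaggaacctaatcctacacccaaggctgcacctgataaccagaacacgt

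Oas1c shares the core with Oas1a and Oas1g in this window, and it was the member that moved the other way with NaBu. The Oas1c window is the whole stretch between the starts of Oas1c and Oas1b. It therefore also lies before Oas1b, which was lower with NaBu. The cores lie 114 to 99 bases before the Oas1c start, at the end nearer to the Oas1b start. Which of these neighbours the cores serve was not tested. Searched in the same 250 bases, the gamma-activated sequence TTCNNNGAA was found in Oas1a only among the 6 (7.02% of all promoters hold it). The NF-kB motif, searched as GGGRNNYYCC (R for A or G, Y for C or T), was found in Oasl1, Oas3 and Oas1c (7.25% of all promoters). The Oas1c match lies 212 to 203 bases before its start, beyond the start of Oas1b and so within that gene. Neither Oas1f nor Oas1h, the paralogs with a promoter in the table, held an ISRE core. These matches are a description of letters; no binding was measured here.

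The libraries held 37.6 to 64.4 M recovered reads. Values are gene counts divided by a size factor per library and are called normalised counts. Of 9 macrophage markers found, all 9 were called lower in LPS+NaBu against LPS and against Control (37.8% and 35.1% of all genes tested). LPS against Control called 6 of them higher and 1 lower (25.2% and 30.8% of all genes). Their levels summed to 213808 to 231646 in LPS+NaBu, 648137 to 685226 in LPS and 470790 to 488406 in Control libraries. Fibroblast markers summed to 268 to 296, 13.0 to 18.8 and 6.36 to 12.1 in the same order of groups. The 4 B cell markers summed to 35.7 to 50.9 in LPS+NaBu, 2.82 to 12.9 in LPS and 5.57 to 20 in Control libraries, with both tested ones called higher in LPS+NaBu against LPS and Ms4a1 at 0 in all libraries. T cell markers summed to 7.81 to 26.8 in LPS+NaBu, 8.47 to 11.7 in LPS and 8 to 15.1 in Control libraries. Epithelium markers summed to 4.46 to 13.1 in LPS+NaBu libraries and were at 0 in LPS and Control libraries. Mitochondrial transcripts took 2.05% to 2.16% in LPS+NaBu, 1.36% to 1.46% in LPS and 2.06% to 2.27% in Control libraries. The part of these differences in the results was not tested. In bulk RNA, fewer cells expressing a gene and less RNA per cell cannot be told apart. Scaling all libraries to the same sum moved the median log2 change of all genes by 0.275 (LPS+NaBu against LPS), -0.222 (LPS against Control) and 0.049 (LPS+NaBu against Control), and changes are to be read relative to these shifts.

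All 8 members were higher with LPS than in Control, and 7 of them were lower with LPS+NaBu than with LPS. In every case except Oas1c, NaBu left a level between those of Control and LPS. Oas1c was the exception and was higher when NaBu was added. The size of the NaBu effect differed widely, and the level kept with LPS+NaBu ranged from 8.91% of the LPS level for Oasl2 to 75.7% for Oas1b among the 7 that were lower.

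**Figure D1:**
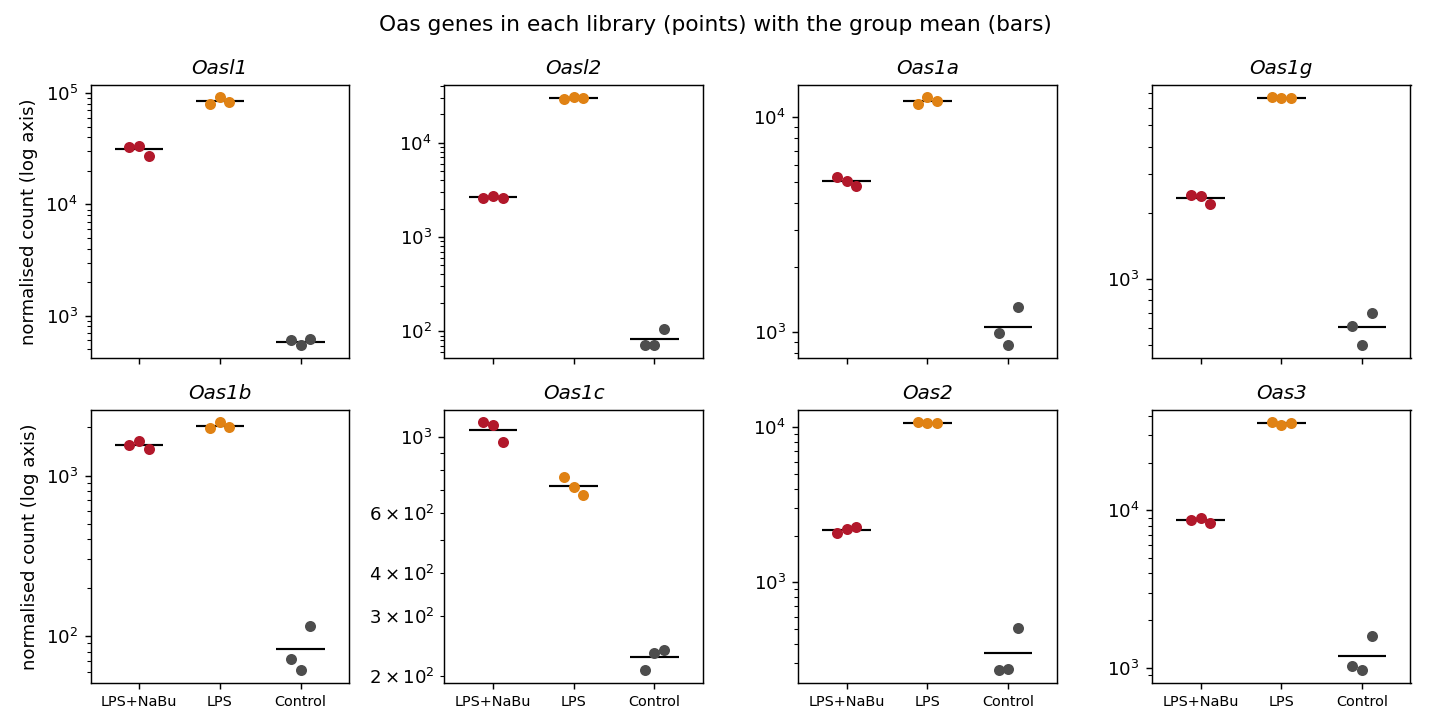
Normalised counts of the 8 Oas genes in each library (points, logarithmic axis, 1 panel per gene with its own range) and the group means (bars) in LPS+NaBu, LPS and Control, n = 3 each. The LPS+NaBu libraries lie below the LPS libraries in 7 panels and above them for Oas1c, and every Control library lies below both other groups.

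Oasl1 encodes an Oas-like protein that in mouse lacks synthetase activity and restrains translation of Irf7. Its normalised counts were 32510, 33691 and 27504 in LPS+NaBu libraries, 80160, 91818 and 83426 in LPS libraries, and 602, 540 and 614 in Control libraries. The groups did not overlap, and LPS+NaBu replicate 3 was the lowest of its group. Oasl1 was 2.73-fold lower with LPS+NaBu than with LPS (log2 change -1.45 ± 0.08 SE, limma adjusted p = 1.25e-09), and 145-fold higher with LPS than in Control (log2 change 7.18, adjusted p = 5.63e-16). With LPS+NaBu it still stood 53.4-fold above Control.

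Oasl2, the neighbour of Oasl1 and an Oas-like protein that in mouse has kept synthetase activity, had 2610, 2737 and 2595 normalised counts in LPS+NaBu libraries, 29030, 30222 and 29932 in LPS libraries, and 70.8, 72.0 and 105 in Control libraries. It showed both the largest rise with LPS and the largest fall with NaBu among the 8. With LPS+NaBu it was 11.2-fold lower than with LPS (log2 change -3.49 ± 0.11 SE, limma adjusted p = 9.9e-12), and with LPS it was 361-fold higher than in Control (log2 change 8.50, adjusted p = 3.62e-15). The pair thus differed between its 2 genes: within each library the log2 ratio of Oasl1 to Oasl2 was 3.55 ± 0.13 with LPS+NaBu and 1.52 ± 0.08 with LPS (SD, n = 3 each), without overlap.

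Oas3 and Oas2 encode the larger synthetases, built from repeats of the domain that Oas1 proteins hold singly. Oas3 had 8674, 8968 and 8326 normalised counts in LPS+NaBu libraries, 36253, 34778 and 36141 in LPS libraries, and 1020, 961 and 1598 in Control libraries. The level of Oas3 with LPS+NaBu was 4.13-fold below that with LPS (log2 change -2.05 ± 0.14 SE, limma adjusted p = 1.36e-08), against a rise of 29.9-fold with LPS over Control. Oas2 had 2070, 2221 and 2274 in LPS+NaBu libraries, 10761, 10666 and 10608 in LPS libraries, and 269, 275 and 506 in Control libraries. Control replicate 3 stood apart from the other Control libraries for both genes, by a wider margin for Oas2. Oas2 was 4.88-fold lower with LPS+NaBu than with LPS (log2 change -2.29 ± 0.18 SE, limma adjusted p = 5.52e-08) and 30.5-fold higher with LPS than in Control. These adjoining genes moved by similar amounts in both comparisons, although their log2 ratio (Oas2 to Oas3) still differed without overlap, at -1.98 ± 0.10 with LPS+NaBu and -1.74 ± 0.03 with LPS.

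Oas1a and Oas1g encode small synthetases that are active in mouse. Their reads cannot be split with certainty: 31.95% of the 150-base windows of the Oas1a reference transcript also occur in that of Oas1g, and 30.09% of those of Oas1g occur in Oas1a, while no other member shares a window. Oas1a had 5286, 5066 and 4804 normalised counts in LPS+NaBu libraries, 11513, 12374 and 11882 in LPS libraries, and 987, 868 and 1304 in Control libraries. Oas1g had 2407, 2382 and 2185 in LPS+NaBu libraries, 6696, 6672 and 6683 in LPS libraries, and 609, 499 and 700 in Control libraries. Both genes kept their 3 groups apart. With LPS+NaBu, Oas1a was 2.36-fold lower (log2 change -1.24 ± 0.11 SE, limma adjusted p = 2.16e-07) and Oas1g 2.87-fold lower than with LPS (log2 change -1.52 ± 0.09 SE, adjusted p = 5.91e-09). Their rise with LPS over Control was 11.3-fold for Oas1a and 11.1-fold for Oas1g. Oas1d overlaps Oas1a on the other strand without sharing exons.

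Oas1b is the locus of flavivirus resistance in mice, and many laboratory strains carry a truncated form; GENCODE labels the reference transcript as loss of function and RefSeq calls the gene a transcribed pseudogene. It had 1544, 1636 and 1459 normalised counts in LPS+NaBu libraries, 1991, 2144 and 1996 in LPS libraries, and 72.4, 61.0 and 115 in Control libraries. Oas1b thus rose 24.7-fold with LPS over Control (log2 change 4.66 ± 0.17 SE, limma adjusted p = 7.28e-11) and changed little when NaBu was added. The LPS+NaBu libraries lay below the LPS libraries without overlap, at 1.32-fold lower (log2 change -0.40 ± 0.17 SE, limma adjusted p = 0.0443). Of the 20 alternatives 11 ended this call, and the adjusted p over all of them ran between 3.65e-05 and 0.508. Among them were scaling to the same sum (log2 change -0.13, adjusted p = 0.508) and leaving out any LPS+NaBu library, any LPS library or Control replicate 1 (adjusted p = 0.0505 to 0.0945).

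Oas1c, the divergent neighbour of Oas1b, had 1102, 1085 and 963 normalised counts in LPS+NaBu libraries, 765, 712 and 678 in LPS libraries, and 208, 234 and 239 in Control libraries. It was the one member that lay higher in every LPS+NaBu library than in every LPS library. Oas1c was 1.46-fold higher with LPS+NaBu than with LPS (log2 change 0.55 ± 0.09 SE, limma adjusted p = 9.12e-05) and kept this call in all 20 alternatives (log2 change 0.44 to 0.82). Its rise with LPS over Control, 3.16-fold, was the smallest of the 8, and with LPS+NaBu it stood 4.62-fold above Control.

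In counts, LPS+NaBu against LPS called 1 member higher and 7 lower, where 78.1% of all genes tested were called (40.2% higher and 37.8% lower). The groups did not overlap for any of the 8, as for 79.0% of all genes. LPS against Control called 8 higher and 0 lower, where 56.1% of all genes were called (25.2% higher and 30.8% lower) and 60.6% had groups without overlap, as all 8 members did. LPS+NaBu against Control, which shares its libraries with the other 2 comparisons, likewise called 8 higher, where 76.1% of all genes were called (40.9% higher and 35.1% lower) and 79.4% did not overlap, again with no overlap in any of the 8 members. The ratios of means to Control ranged from 3.86-fold (Oas1g) to 53.4-fold (Oasl1). The median log2 change of the 8 members was -1.49 for LPS+NaBu against LPS, 4.80 for LPS against Control and 2.80 for LPS+NaBu against Control, beside 0.02, -0.05 and 0.09 over all genes tested. Ordered by the log2 change with LPS over Control among 14808 genes, Oasl2 was number 32 from the top, Oasl1 57, Oas2 145, Oas3 150, Oas1b 174, Oas1a 276, Oas1g 283 and Oas1c 750. All 8 members were higher in Control replicate 3 than in the other Control libraries. Without that library all 8 were still called higher with LPS over Control, with log2 changes from 1.70 (Oas1c) to 8.68 (Oasl2).

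**Figure D2:**
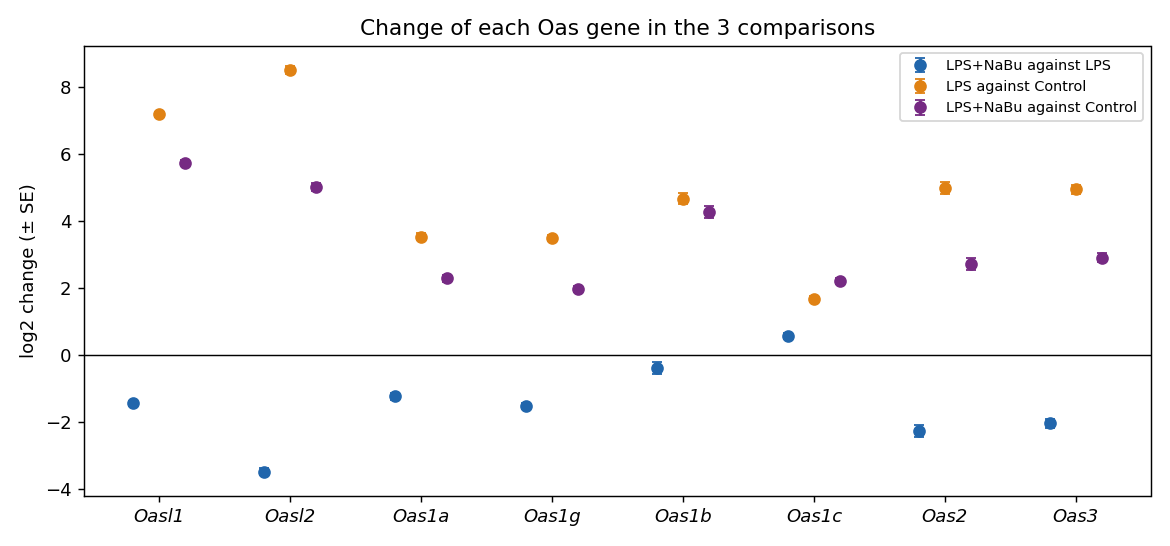
Log2 change with its standard error for each Oas gene in LPS+NaBu against LPS, LPS against Control and LPS+NaBu against Control (3 libraries per group). Oasl2 has both the largest rise with LPS (8.50) and the largest fall with NaBu (-3.49), Oas1b lies near 0 for NaBu (-0.40), and Oas1c lies above 0 in all 3 comparisons.

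Whether members moved by different amounts with NaBu was asked with the log2 ratio of each pair within each library, in which a scaling between libraries cancels but for the pseudocount of 1. The ratios of 27 of the 28 pairs did not overlap between LPS+NaBu and LPS libraries. Oasl1 and Oas1g were the exception, with a log2 ratio of 3.74 ± 0.08 with LPS+NaBu and 3.67 ± 0.10 with LPS (SD, n = 3 each, difference 0.07, exact two-sided permutation p = 0.4). For the other pairs the exact permutation p was 0.1, the smallest that 3 against 3 libraries can give (0.104 adjusted over the 28 pairs), so none could pass the threshold of 0.05. The widest separation was between Oasl2 and Oas1c, whose log2 ratio was 1.34 ± 0.09 with LPS+NaBu and 5.37 ± 0.11 with LPS. Between the divergent neighbours Oas1b and Oas1c it was 0.56 ± 0.06 with LPS+NaBu and 1.51 ± 0.11 with LPS. How often the ratios of other gene pairs overlap was not computed. Of all genes tested, 79.0% did not overlap between LPS+NaBu and LPS libraries. The count of pairs alone therefore does not set the Oas genes apart. The pairs also share members and are not independent of each other.

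Levels were compared between members per kb of the Ensembl reference transcript. The 8 members summed to 22497 ± 1791 normalised counts per kb with LPS+NaBu, 69400 ± 2972 with LPS and 1634 ± 312 in Control (SD, n = 3 each). Oasl1 took most of the sum in stimulated cells, 62.7% with LPS+NaBu and 55.5% with LPS, against 16.5% in Control. Oasl2 took 3.78% with LPS+NaBu, 13.7% with LPS and 1.61% in Control, a share that was highest with LPS. In Control cells Oas1a led with 33.6% of the sum, against 11.8% with LPS+NaBu and 8.99% with LPS. Oas3 held 8.17% with LPS+NaBu, 10.9% with LPS and 15.3% in Control.

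The order of levels per kb with LPS+NaBu was Oasl1, Oas1a, Oas3, Oas1g, Oasl2, Oas1b, Oas2 and Oas1c. Oasl2 (848 ± 25 normalised counts per kb) and Oas1b (842 ± 48.4) did not differ beyond their spread. With LPS the order was Oasl1, Oasl2, Oas3, Oas1a, Oas1g, Oas2, Oas1b and Oas1c, from 38523 ± 2721 to 314 ± 19.1 per kb. In Control, Oas1a (551 ± 118 per kb) was followed by Oas1g (305 ± 50.9), Oasl1 and Oas3 (253 ± 74.6), of which the last 3 lay within their spread, as did Oas1c (99.2 ± 7.25) and Oas2 (90.1 ± 34.8). These orders depend on the length used. Divided by all annotated exons merged, which for Oas1a span 7.989 kb instead of 1.911 kb, Oas1g led in Control (250 ± 41.8 per kb) and Oas1a fell behind Oasl1 and Oas3 (132 ± 28.2), while Oasl1 stayed first with LPS+NaBu and with LPS.

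**Figure D3:**
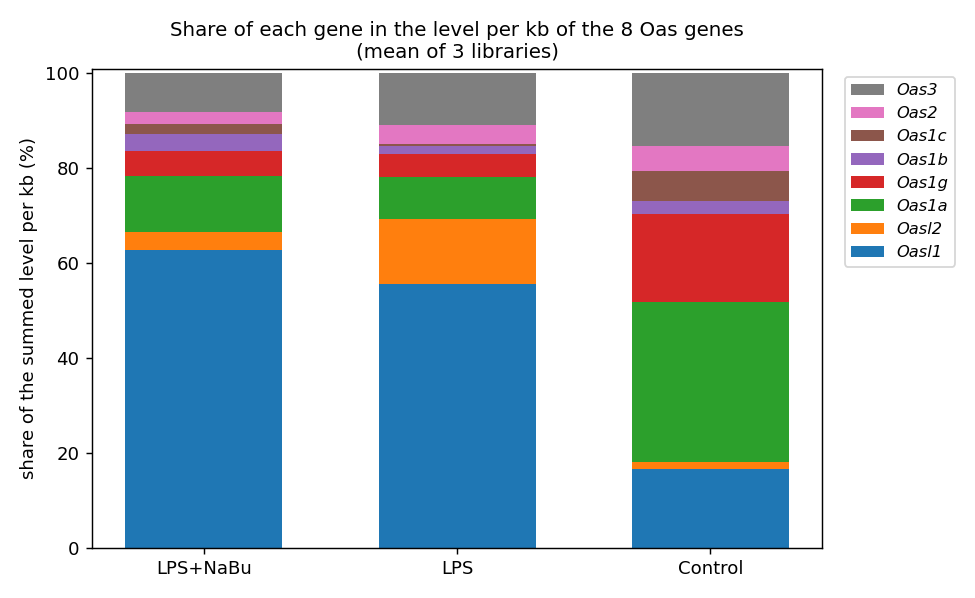
Share (%) of each Oas gene in the summed level per kb of reference transcript of the 8 genes, as the mean of 3 libraries in LPS+NaBu, LPS and Control. Oasl1 takes 62.7% with LPS+NaBu and 55.5% with LPS but 16.5% in Control, where Oas1a leads with 33.6%.

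The other Oas1 paralogs of the cluster were sparse in these cells. Oas1e, which lies between Oas3 and Oas1c, had 111, 127 and 112 normalised counts in LPS+NaBu libraries, 5.01, 7.04 and 0 in LPS libraries, and 1.59, 0 and 0 in Control libraries. Oas1d, known from mouse oocytes, had 63.9, 55.8 and 52.6 in LPS+NaBu libraries, 16.0, 7.04 and 2.82 in LPS libraries, and 11.1, 10 and 12.1 in Control libraries. For both, every LPS+NaBu library lay above every LPS and Control library. Oas1e passed the filter on low values only through its LPS+NaBu libraries, so its log2 change of 5.01 against LPS is a description, with no test. It moved to 4.08 without LPS replicate 3, to 5.59 without LPS replicate 2 and to 3.85 with a pseudocount of 5. The log2 change of Oas1d was 2.85 ± 0.46 SE (limma adjusted p = 7.42e-05), and 2.13 under quantile normalization. Oas1h had 124, 142 and 134 in LPS+NaBu libraries, 79.2, 76.3 and 77.7 in LPS libraries, and 17.5, 14.0 and 31.2 in Control libraries. It was higher with LPS+NaBu (log2 change 0.77 ± 0.26 SE, adjusted p = 0.0157), a call lost under quantile normalization (adjusted p = 0.399). In LPS against Control, Oas1h was called higher and Oas1d was not called. Oas1f had at most 7.26 normalised counts in any library and was not tested.

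**Figure D4:**
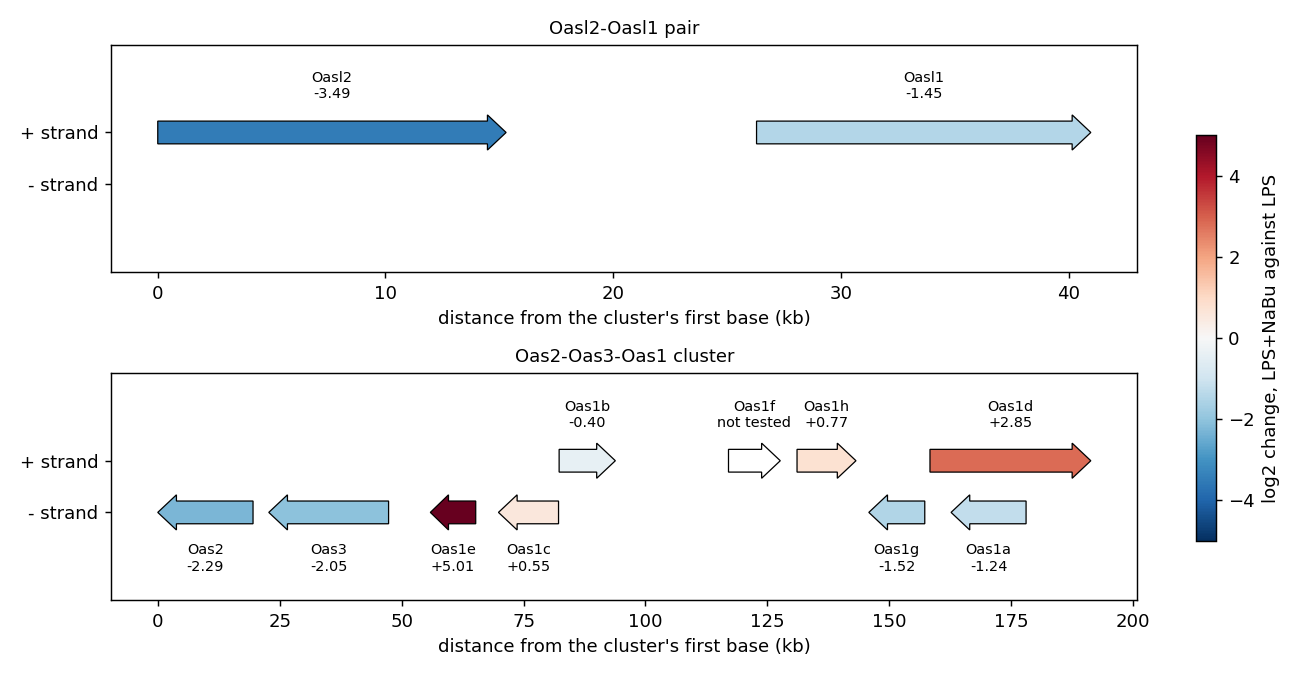
The Oas genes drawn to scale as arrows in the direction of transcription, with distance in kb from the first base of the Oasl2-Oasl1 pair (top) and of the Oas2-Oas3-Oas1 cluster (bottom), coloured and labelled by the log2 change in LPS+NaBu against LPS. Genes that were lower with NaBu (Oas2, Oas3, Oas1b, Oas1g, Oas1a) are interspersed with genes that were higher (Oas1e, Oas1c, Oas1h, Oas1d).

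The genes that flank the pair and the cluster were described as well, taking the 5 nearest tested genes on each side of both. In LPS+NaBu against LPS, 14 of these 20 were called higher and 4 lower (median log2 change 0.80), beside 40.2% and 37.8% of all genes tested. In LPS against Control 1 was called higher and 12 lower, beside 25.2% and 30.8% of all genes. Dtx1, which encodes a Notch pathway ubiquitin ligase and is the nearest tested gene beyond Oas2, averaged 1705 normalised counts with LPS+NaBu, 19.0 with LPS and 45.7 in Control (log2 change 6.49 for LPS+NaBu against LPS, limma adjusted p = 2.4e-10). Gm13822, a long non-coding RNA on the minus strand (chr5:115055374-115061375), lies mostly before Oasl1. Its exons overlap those of Oasl1 only at the Oasl1 start. Gm13822 averaged 33.4 with LPS+NaBu, 594 with LPS and 19.1 in Control. Its log2 change was -4.11 for LPS+NaBu against LPS and 4.89 for LPS against Control (adjusted p = 9.07e-11 and 4.33e-11). Whether reads were counted by strand is not stated in the study's methods or labels. Reads of Oasl1 and Gm13822 may therefore not be fully separated in this overlap.

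Of the proteins that limit 2-5A signalling, Abce1, also an ATPase of ribosome recycling, had 5416, 5509 and 6348 normalised counts in LPS+NaBu libraries, 12929, 11320 and 12941 in LPS libraries, and 12631, 13249 and 12111 in Control libraries. Abce1 was lower with LPS+NaBu than with LPS (log2 change -1.11 ± 0.07 SE, limma adjusted p = 5.8e-09) and was not called in LPS against Control (log2 change -0.03, adjusted p = 0.717). The enzymes that degrade 2-5A moved apart. Akap7, an anchoring protein with 2-5A phosphodiesterase activity in mouse, averaged 968 with LPS+NaBu, 448 with LPS and 638 in Control, higher with NaBu (log2 change 1.11 ± 0.10 SE, adjusted p = 3.11e-07) and lower with LPS than in Control (log2 change -0.50, adjusted p = 0.000942). Pde12, a mitochondrial phosphodiesterase, averaged 1456 with LPS+NaBu, 1892 with LPS and 1972 in Control (log2 change -0.38 ± 0.06 SE for LPS+NaBu against LPS, adjusted p = 6.89e-05), and its call ended when scaled to the same sum (log2 change -0.10, adjusted p = 0.153). Of these 3 genes, LPS+NaBu against LPS thus called 1 higher and 2 lower (40.2% and 37.8% of all genes tested). LPS against Control called 0 higher and 1 lower (25.2% and 30.8% of all genes).

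Other genes of double-stranded RNA sensing, sensors and adaptors among them, were counted beside the Oas genes, 9 genes in all. LPS against Control called 9 higher and 0 lower (median log2 change 5.48), beside 25.2% higher and 30.8% lower of all genes tested. In that comparison Mavs, at 0.17, turned to -0.05 when scaled to the same sum. LPS+NaBu against LPS called 2 higher and 7 lower (median -2.35), beside 40.2% and 37.8% of all genes. Tlr3, the endosomal sensor, had 106, 79.2 and 112 normalised counts in LPS+NaBu libraries, 2090, 1906 and 2035 in LPS libraries, and 47.7, 42.0 and 42.2 in Control libraries (log2 change -4.34 ± 0.14 SE for LPS+NaBu against LPS, limma adjusted p = 1.08e-11). Zbp1, a sensor of Z-form nucleic acid, averaged 879 with LPS+NaBu, 16847 with LPS and 25 in Control (log2 change -4.26 ± 0.12 SE, adjusted p = 2.05e-12). The cytosolic helicases were also lower: Ifih1 (MDA5) averaged 153 with LPS+NaBu, 1230 with LPS and 3.88 in Control (log2 change -3.00). Ddx58 (RIG-I) averaged 4910, 25064 and 454 in the same order of groups (log2 change -2.35). Dhx58 averaged 2490, 15867 and 353 in that order (log2 change -2.67). The 2 that were higher are the adaptors of these sensors: Mavs averaged 6307 with LPS+NaBu, 3997 with LPS and 3540 in Control (log2 change 0.66), and Ticam1 averaged 4539, 3654 and 1485 (log2 change 0.31). Mb21d1 (cGAS), a structural relative of the Oas enzymes that senses DNA, averaged 678 with LPS+NaBu, 4159 with LPS and 2506 in Control, and its partner Tmem173 (STING) averaged 313, 1313 and 1079. Unlike the 8 Oas genes, both fell below Control with LPS+NaBu (log2 change -1.89 and -1.78 for LPS+NaBu against Control, adjusted p = 1.91e-11 and 9.87e-11).

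The next list held 10 genes that carry the interferon signal to Oas promoters. LPS against Control called 8 of them higher and 1 lower (25.2% and 30.8% of all genes tested). LPS+NaBu against LPS called 4 higher and 6 lower (40.2% and 37.8% of all genes). Ifnb1 is counted among them, higher and lower in that order, although it passed the filter on low values only through its LPS libraries. Ifnb1, which encodes interferon beta, had 5.50, 4.46 and 5.44 normalised counts in LPS+NaBu libraries, 158, 178 and 164 in LPS libraries, and 0, 2 and 0 in Control libraries. Its log2 change of -4.78 in LPS+NaBu against LPS is therefore a description, with no test, and was -4.08 with a pseudocount of 5 and -6.62 under quantile normalization. The Control level rests on 2 reads. Irf7, which amplifies interferon production, averaged 5350 with LPS+NaBu, 43710 with LPS and 252 in Control (log2 change -3.03 ± 0.19 SE for LPS+NaBu against LPS, limma adjusted p = 5.38e-09). These ISGF3 subunits were lower: Irf9 averaged 1347 with LPS+NaBu, 5210 with LPS and 649 in Control (log2 change -1.95). Stat2 averaged 9397, 17348 and 1447 in the same order of groups (log2 change -0.88). Irf1 had the smallest of the 6 falls (log2 change -0.18, limma adjusted p = 0.0376). This fall is smaller than the 0.275 by which scaling to the same sum moved the median of all genes. The 4 called higher with LPS+NaBu were the receptor chain Ifnar1 (log2 change 0.81), the kinases Tyk2 (0.68) and Jak1 (0.54), and Irf3 (0.52), a factor that switches on Ifnb1. Irf3 was the one called lower in LPS against Control (log2 change -0.25, adjusted p = 0.00589), and the receptor chain Ifnar2 was not called there (log2 change 0.01, adjusted p = 0.92); with equal library sums it was lower (log2 change -0.22, adjusted p = 0.00216).

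A list of 6 genes held brakes on interferon signalling and Isg15. Of these, LPS against Control called 5 higher (25.2% of all genes tested) and 1 lower (30.8%), the phosphatase Ptpn6 (log2 change -0.20). LPS+NaBu against LPS called 0 higher and 5 lower (40.2% and 37.8% of all genes). Ptpn6 is among these 5 (log2 change -0.35), and its call ended with equal library sums (log2 change -0.08, limma adjusted p = 0.106) and under quantile normalization (log2 change -0.06, adjusted p = 0.191). Usp18, which blocks the interferon receptor and removes Isg15 from proteins, averaged 5272 with LPS+NaBu, 38029 with LPS and 180 in Control (log2 change -2.85 ± 0.15 SE, limma adjusted p = 1.46e-09). Socs3, an inhibitor of JAK kinases, averaged 7393, 43749 and 717 in the same order of groups (log2 change -2.56), and Isg15, a ubiquitin-like modifier, averaged 12362, 31523 and 77.8 (log2 change -1.35). Socs1, a related inhibitor, had 117, 134 and 116 with LPS+NaBu and 144, 204 and 174 with LPS, and was not called (log2 change -0.50 ± 0.25 SE, adjusted p = 0.0862); it was called lower in 6 of 20 alternatives.

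**Figure D5:**
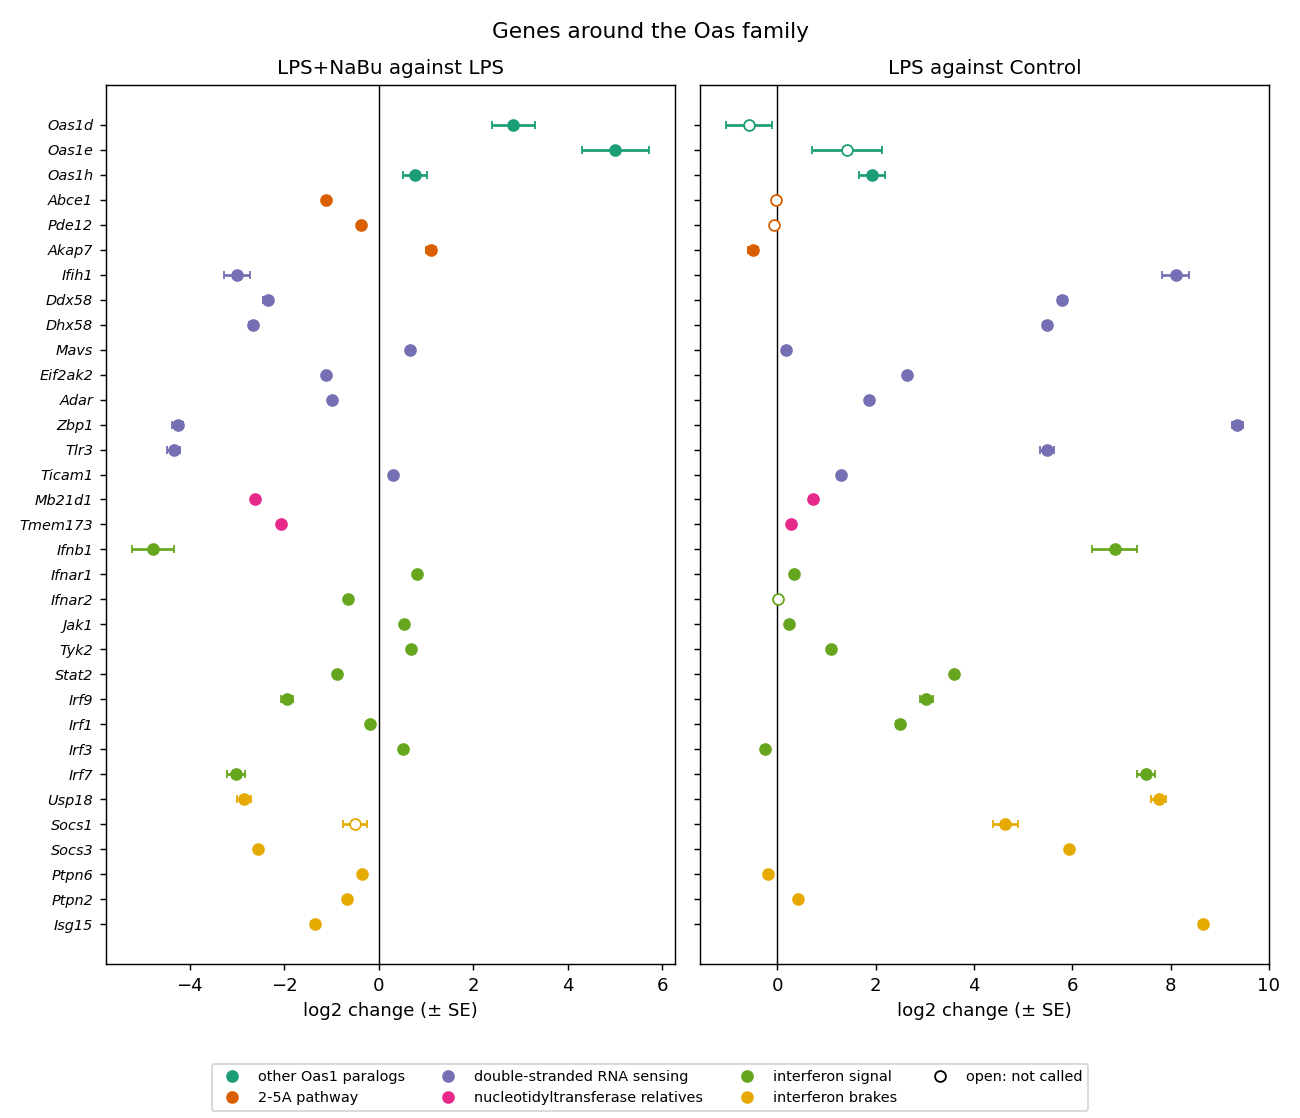
Log2 change with its standard error of genes around the Oas family in LPS+NaBu against LPS (left) and LPS against Control (right), coloured by gene list. Open points did not pass an adjusted p of 0.05. Oas1e and Ifnb1 passed the filter on low values only through 1 group, so their points are a description, with no test, whether filled or open. Abce1 lies at -1.11 on the left and near 0 on the right, whereas Tlr3, Zbp1, Irf7 and Usp18 lie far below 0 on the left and far above it on the right.

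For each member the genes most like it were sought as those with the smallest Euclidean distance between log2(normalised count + 1) profiles over the 9 libraries, each centred on its own mean, among 10855 genes with a mean of at least 100 and without Oas genes. A smaller distance means a closer profile. Oas2 was nearest to the RNA helicase gene Dhx58 (distance 0.84), with averages of 2490 with LPS+NaBu, 15867 with LPS and 353 in Control, and then to Ifi203 (0.84). Oas3 was nearest to Traf1 (0.72), and Oas1a to AI607873 (0.39) and Trafd1 (0.49), an interferon-inducible gene. Oas1g was nearest to Hap1 (0.40), and AI607873 came next (0.43). Oasl2 was nearest to Apol9b (0.97), Hdc (0.98) and Isg20 (0.99), with closely spaced distances. Oasl1 had no close match, with Cd40 (1.16) and Irg1 (1.2) as its nearest genes. Oas1b was nearest to Lcn2 (0.69), an iron-binding secreted protein that averaged 1893 with LPS+NaBu, 2511 with LPS and 103 in Control, and to Nfkbiz (0.93), a nuclear partner of NF-kB. Oas1c was nearest to Jdp2 (0.39), Daam1 (0.40) and Furin (0.41).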

How the data were processed

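According to the study's methods, a directional kit was used, HISAT2 aligned the reads after trimming (Trimmomatic), and featureCounts took those mapped uniquely. STAR 2.7.7a, DESeq2 and mm39 stand in the submitters' processing notes, and the aligner behind the values is therefore open. The deposited signal, which the authors call FPKM, is not divided by gene length: it is a count per gene divided by 1 size factor per library. In the 6 libraries whose step per read was more than 1% away from 1, 100.0% of low values were whole reads within 0.001. Recovered totals were 37.6 to 64.4 M reads per library.

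The 14808 genes with 10 or more normalised counts in 3 or more libraries entered limma 3.58.1 on the scale log2(value + 1) (R 4.3.3; group means over 9 libraries, intensity trend, two-sided, Benjamini-Hochberg over all genes tested). Calls required an adjusted p under 0.05. Log2 changes of low genes are understated by the pseudocount. Alternatives were 2 scalings, pseudocounts of 0.5 and 5, no filter and a filter of 50, edgeR 4.0.16 and DESeq2 1.42.0 on recovered reads, only the 2 groups compared, no trend, a replicate block and leaving out each library. The fit was tested on simulated data in which few genes changed, all upward in LPS+NaBu. Most genes were called here, in both directions, so that test does not bear on the scaling between libraries.

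Of 43629 identifiers, 38984 matched GENCODE M39 (GRCm39). RefSeq promoters came from a table on GRCm38.p6. Protein sequences were not used here, and some genes of the lists are not reported here. Genes were named where called and among the 3 largest changes of their list. Pde12, Mavs, Ticam1, Dhx58, Ifnar1, Ifnar2, Tyk2, Jak1, Irf3, Irf1, Ptpn6, Socs1, Dtx1 and Gm13822 were named after their values were seen. Members and lists were chosen with earlier results of these data known.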

Additional observations from a re-analysis of the deposited data

How the results depend on the processing

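Under the 20 alternatives the counts of called Oas genes stayed at 7 or 8 (LPS+NaBu against LPS), 8 (LPS against Control) and 8 (LPS+NaBu against Control), and the 7 came from losing Oas1b. Leaving out one library at a time gave 7 to 8, 8 to 8 and 8 to 8 members, and 10610 to 11498, 7520 to 8343 and 10261 to 11433 of all genes. Scaled to the same sum, 64.4% instead of 51.5% of the calls in LPS+NaBu against LPS were higher, and 24.3% instead of 45.0% in LPS against Control. Under this scaling the log2 change of LPS against Control turned its sign for Mavs (-0.05) and Ifnar2 (-0.22). Ifnb1 turned for LPS+NaBu against Control under quantile normalization (-0.33), which moved the median of all genes by -0.165 there. Another 8 changes of sign occurred in values of 2 genes that were called neither way. The cause of these turns was not tested.

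With the replicate number as a block, 8 members were called in each comparison, 1 higher and 7 lower in LPS+NaBu against LPS. Deviations of libraries with the same number correlated at -0.044 to 0.02, so no effect shared by equal numbers was seen. Whether equal numbers mark cultures handled together is not given in the labels. Genes with few reads, such as Oas1e and Ifnb1 in Control, allow no fold change there at this depth.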
